A study of Arabidopsis thaliana with 12 samples.

Results

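The genes described here are 3 Arabidopsis thaliana genes named for induction by osmotic stress: DI21 (AT4G15910, drought-induced 21), MAMI (AT5G54110, membrane-associated mannitol-induced) and SIS (AT5G02020, Salt Induced Serine rich). They were chosen by name, as the rows of the array whose annotation gives 1 gene and that gene is one of the 3. Each was found on 1 such probe, so 3 of the 690 genes that the array reports singly are described, and all 3 were above 0 in all 12 samples. A further probe is annotated to SIS together with 2 other genes and was kept apart.

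The arrays hold total RNA of wild-type plants of the ecotype Wassilevskija. Water was given to the plants of 6 samples, and MS, a mineral salt medium for plants, with 60 mM sucrose for 30 min to those of the other 6; how long the water treatment lasted, the tissue and the age are not stated in the labels. Salts and sugar were given together, so every difference below belongs to the 2 jointly. The labels name no separate cultures or plants for the samples, so a p-value here reflects spread that may be technical, and the number of arrays limits the precision.

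Plants exposed to salt, sugar alcohols or drying lose water from their cells. They respond through abscisic acid, a stress hormone, and through pathways that do not need it, and accumulate solutes and protective proteins. DI21 encodes a small protein of a late embryogenesis abundant (LEA) family, a class of hydrophilic proteins that accumulate in drying tissue. MAMI encodes a membrane-associated protein related to the VAP proteins, which sit on the endoplasmic reticulum and bind partner proteins there. SIS encodes a serine-rich protein named for its induction by salt.

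In the deposited intensities none of the 3 genes differed past the threshold between sucrose medium and water (limma without a block, adjusted p = 0.0540 for DI21, 0.487 for MAMI and 0.0742 for SIS); at an unadjusted p under 0.05 it was 1 of 3, DI21. On that scale 81.6% of all probes tested passed the adjusted threshold, 73.9% as higher. At the unadjusted threshold the share is at least as large. With the replicate number as a block, an alternative for the deposited scale that was chosen after seeing the data, DI21 and SIS passed as higher (limma, adjusted p = 0.0452 and 0.0140) and MAMI did not (adjusted p = 0.454); 85.0% of all probes then passed, 76.3% as higher. Most other probes were brighter in sucrose medium, and after the arrays had been brought to a common distribution by quantile normalisation all 3 genes were lower there. DI21 fell by 0.98 on the log2 scale, SIS by 0.77 and MAMI by 0.64 (limma, adjusted p = 0.000247, 0.00799 and 0.000303). The call 3 of 3 is to be read against a background in which 64.4% of the 2915 probes tested passed the same threshold, and 32.9% passed it as lower.

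The reason to give both scales lies in the table itself. Intensities run from 0 to 100 in an unknown unit, and 9 probes reached 100 in some sample. Any scaling or cap applied before deposit is not stated, so unscaled here means as deposited. The median over the 3439 probes was 0.171 to 0.188 in the 6 water samples and 0.422 to 0.459 in the 6 sucrose medium samples. The median log2 difference over all probes tested was 1.09 without scaling and -0.03 after quantile normalisation. Without scaling 90.5% of the probes past the threshold were higher in sucrose medium, against 48.9% after quantile normalisation, 40.0% after median centring and 71.4% after linear rescaling, in which each array was fitted to the mean of the water arrays. A log2 fold change after normalisation therefore states where a gene stands relative to the other probes of its array, and whether the common rise lies in the RNA or in the measurement was not tested. Of 8 marker genes of green tissue 3 were on probes of their own, PSAN, PSBW and PSBY, and each was above 0 in 12 of 12 samples; 0 root and 0 seed markers could be tested. Their mean deposited intensities in water and sucrose medium were 2.71 and 2.33 for PSAN, 44.3 and 31.9 for PSBW, and 1.45 and 1.15 for PSBY. After normalisation 1 of these 3 passed, PSBY, as lower (limma, adjusted p = 3.97e-05), and its part in the results below was not tested.

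DI21, the LEA-type gene, had deposited intensities of 0.188, 0.206, 0.197, 0.211, 0.114 and 0.126 in water replicates 1 to 6. In sucrose medium its intensities were 0.230, 0.202, 0.219, 0.222, 0.201 and 0.220. The sucrose medium samples lay close together, while water replicates 5 and 6 lay well below the other 4 water samples, and the groups overlapped. Over all probes tested the deposited groups did not overlap for 68.4%. The means were 0.174 ± 0.043 in water and 0.215 ± 0.012 in sucrose medium (SD, n = 6 each). The unscaled log2 fold change was 0.35 ± 0.16 (SE), with a 95% interval of 0.01 to 0.69 and an adjusted p of 0.0540 (limma; 0.0452 with the block), and 5 of 6 same-numbered pairs were higher in sucrose medium. That is a 1.27-fold difference, on a table whose median probe rose by 1.09 on the log2 scale.

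MAMI, the mannitol-induced membrane protein gene, had deposited intensities of 0.935, 0.912, 0.878, 0.851, 0.830 and 0.899 in water. In sucrose medium they were 0.942, 1.07, 0.767, 0.775, 1.07 and 1.02. Water samples were tightly grouped, and in sucrose medium replicates 3 and 4 lay below every water sample while replicates 1, 2, 5 and 6 lay above every one of them. The unscaled log2 fold change was 0.077 ± 0.10 (SE), with a 95% interval of -0.14 to 0.29 (limma, adjusted p = 0.487). Of the same-numbered pairs 4 of 6 were higher in sucrose medium.

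SIS, the salt-induced gene, had deposited intensities of 0.287, 0.408, 0.171, 0.170, 0.255 and 0.324 in water. In sucrose medium its intensities were 0.393, 0.427, 0.363, 0.221, 0.432 and 0.357. Each same-numbered pair was higher in sucrose medium, 6 of 6, although the groups overlapped because water replicate 2 was brighter than 4 of the 6 sucrose medium samples and sucrose medium replicate 4 was dim. The unscaled log2 fold change was 0.48 ± 0.23 (SE), with a 95% interval of -0.03 to 0.99 (limma, adjusted p = 0.0742). With the replicate number as a block its SE was 0.14 and its adjusted p 0.0140. On this scale the median probe rose by 1.09. The share of all probes with 6 of 6 pairs in the same direction is not given here, on either scale.

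**Figure D1:**
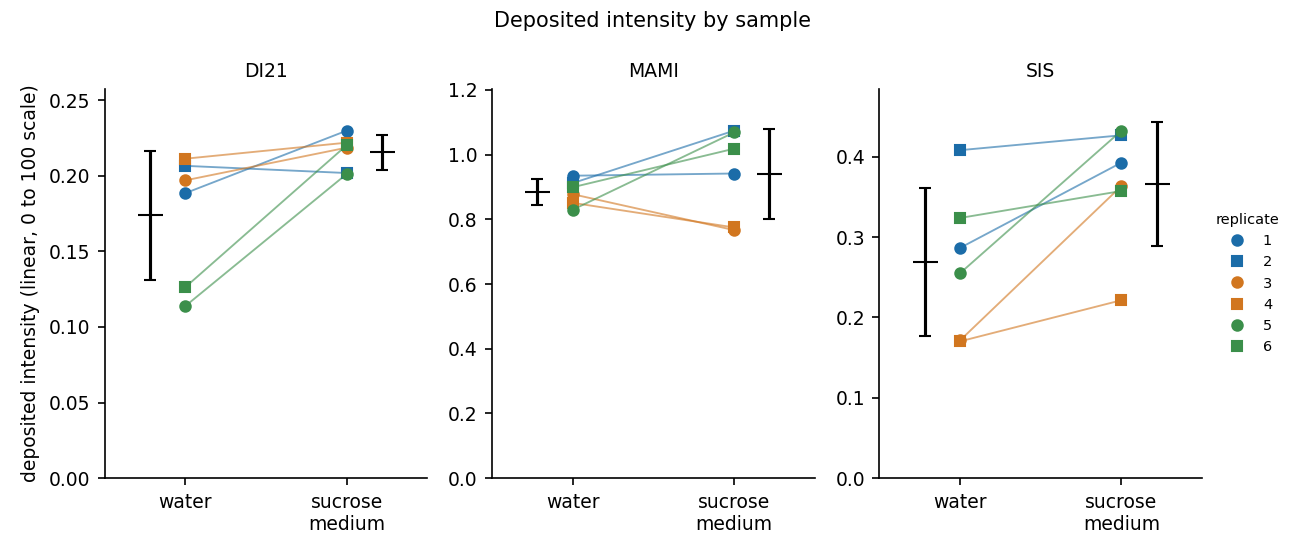
Deposited intensity (linear, vertical axis from 0) of DI21, MAMI and SIS in the 6 water and 6 sucrose medium samples. Lines join samples with the same replicate number, colours mark replicates 1 and 2, 3 and 4, and 5 and 6, and black bars are mean ± SD. The groups overlap for each gene, and of these 3 genes only SIS is higher in sucrose medium in 6 of 6 pairs.

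Relative to the other probes of an array, the picture turned. DI21 was brighter than 34.9 to 57.7% of all probes in the water samples and brighter than 24.4 to 30.8% in sucrose medium. For MAMI these positions were 87.6 to 89.0% and 73.7 to 84.2%. For SIS they were 49.8 to 76.1% and 27.4 to 50.4%. The ranges of DI21 and MAMI did not overlap between the groups, and those of SIS did.

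After quantile normalisation the log2 intensity of DI21 was -1.75, -1.63, -1.65, -1.57, -2.50 and -2.37 in water. In sucrose medium it was -2.71, -2.84, -2.90, -2.86, -3.08 and -2.94. All 6 sucrose medium samples lay below all 6 water samples, a separation downwards that 23.3% of the probes tested showed. The mean went from -1.91 ± 0.41 to -2.89 ± 0.12 (SD, n = 6 each), a 1.97-fold lower level with a 95% interval of -1.34 to -0.62 on the log2 scale. The difference within same-numbered pairs ran from -1.30 to -0.57. It was smallest in the set of replicates 5 and 6, at -0.57, where the water samples were the dim ones. Replicates 1 and 2 were at -1.09 and replicates 3 and 4 at -1.28. After linear rescaling DI21 lay at or below 0 in all 6 sucrose medium samples. No background values were given, so whether DI21 stood above background cannot be stated.

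The normalised log2 intensity of MAMI was 0.12, 0.11, 0.14, 0.09, -0.00 and 0.09 in water. In sucrose medium it was -0.53, -0.25, -0.86, -0.88, -0.34 and -0.44. These groups did not overlap either, and the spread was wider in sucrose medium than in water. The mean went from 0.09 ± 0.05 to -0.55 ± 0.27 (SD, n = 6 each), a 1.56-fold lower level with a 95% interval of -0.89 to -0.40 on the log2 scale. The set of replicates 3 and 4 had the largest difference, -0.99, against -0.50 in replicates 1 and 2 and -0.43 in replicates 5 and 6. After linear rescaling MAMI was at -0.085 and did not pass (limma, adjusted p = 0.562).

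The normalised log2 intensity of SIS was -1.21, -0.77, -1.86, -1.87, -1.43 and -1.13 in water. In sucrose medium it was -1.98, -1.81, -2.13, -2.87, -1.90 and -2.18. Here the groups overlapped, because water replicates 3 and 4 were about as dim as the brightest sucrose medium samples, but 6 of 6 pairs were lower. The mean went from -1.38 ± 0.43 to -2.15 ± 0.38 (SD, n = 6 each), a 1.70-fold lower level with a 95% interval of -1.24 to -0.30 on the log2 scale. The adjusted p (limma) was 0.00799 without the block and 0.00105 with it. Whether SIS stood above background cannot be stated. SIS did not pass with each set of 2 samples averaged to 1 value (limma, adjusted p = 0.0553) or without replicates 5 and 6 of both groups (-0.77, adjusted p = 0.0607).

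**Figure D2:**
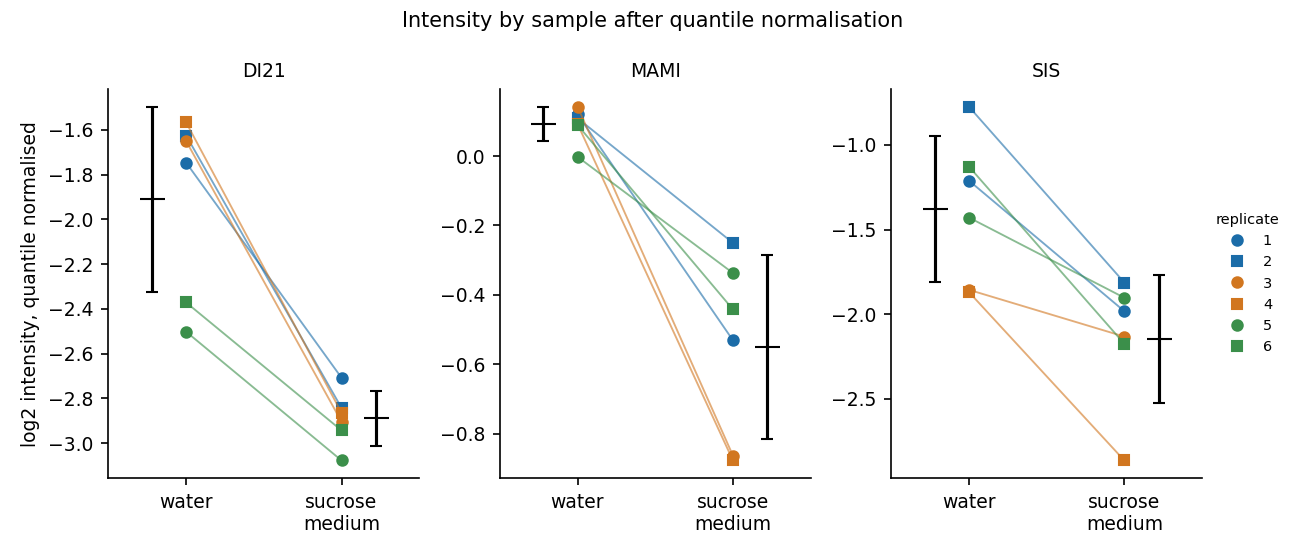
Log2 intensity after quantile normalisation of DI21, MAMI and SIS in the same 12 samples, with lines, colours and bars as in the plot of deposited intensities. Each line falls from water to sucrose medium, and the groups are separate for DI21 and MAMI and overlap for SIS.

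The exact permutation test over the 12 samples, two-sided and unadjusted, gave p = 0.00216 for DI21 and for MAMI, the smallest value that this test can give with 6 against 6 samples, and p = 0.00866 for SIS, all on the normalised values. In the list of 2915 probes ordered by normalised log2 fold change, 10.9% lay below DI21, 17.0% below SIS and 21.0% below MAMI. Without scaling 24.4% lay below DI21, 28.1% below SIS and 16.7% below MAMI. On both scales the 3 genes thus stood in the lower part of the distribution and well inside it.

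**Figure D3:**
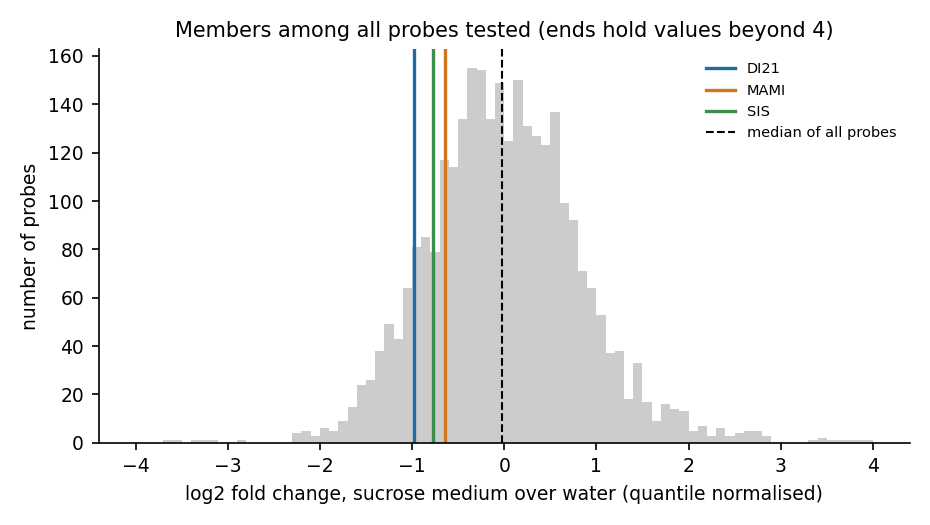
Number of probes (vertical axis) by log2 fold change of sucrose medium over water after quantile normalisation (horizontal axis) for the 2915 probes tested. Coloured lines mark DI21 at -0.98, SIS at -0.77 and MAMI at -0.64, and the dashed line marks the median of all probes at -0.03.

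The direction of the 3 genes depended on the scaling, and their place below the median probe did not in the settings that could be fitted. With cyclic loess, which removes differences that follow brightness, DI21 was at -1.03, SIS at -0.86 and MAMI at -0.45, where the median probe was at -0.01. With median centring the values were -0.91, -0.78 and -1.18, where the median probe was at -0.17, so that MAMI was then the lowest of the 3. Median centring moves all probes of an array by the same amount. The place of the 3 genes against the median probe is therefore that of the unscaled values, not a separate result. After linear rescaling SIS was at -0.69 over 5 of its 6 sucrose medium samples, MAMI at -0.085, and the median probe at 0.40; DI21 then lay at or below 0 in all 6 sucrose medium samples and could not be fitted.

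**Figure D4:**
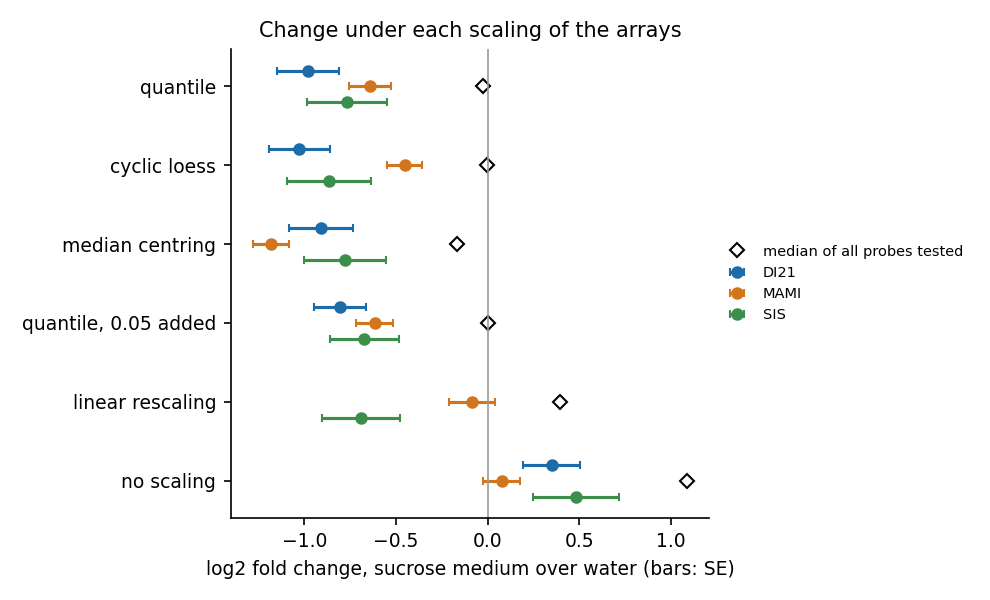
Log2 fold change of sucrose medium over water (horizontal axis, bars are SE) of DI21, MAMI and SIS under 5 scalings of the arrays, and under quantile normalisation with 0.05 added before log2, with the median of all probes tested as open diamonds. Each gene lies left of the diamond in each setting where it has a value, and right of 0 only without scaling.

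Whether the 3 genes changed by different amounts was tested from the difference between the log2 intensities of a pair of genes within each array, over 3 pairs. After quantile normalisation the change of DI21 minus that of MAMI was -0.34 (95% interval -0.78 to 0.11), that of DI21 minus SIS -0.21 (-0.91 to 0.49), and that of MAMI minus SIS 0.13 (-0.33 to 0.58). None passed the exact permutation test over samples (two-sided, p = 0.123, 0.504 and 0.550, and 0.370, 0.550 and 0.550 after Benjamini-Hochberg adjustment over the 3 pairs). The intervals leave room for differences of about the size of the changes themselves, so the test does not show that the genes moved alike. An exact sign-flip test over same-numbered pairs gave adjusted p = 0.094, 0.516 and 0.531 for the same 3 differences. With cyclic loess DI21 minus MAMI was -0.57 (exact permutation test over samples, adjusted p = 0.0519). Without scaling the first and the last of these differences had the other sign, 0.27 and -0.40 (adjusted p = 0.276 for both). After linear rescaling MAMI minus SIS was 0.68 (exact permutation test, adjusted p = 0.00649). SIS then had values in only 5 of its 6 sucrose medium samples. DI21 had none there, so this was the only pair that could be tested.

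Over the 12 samples the normalised values correlated at 0.78 between DI21 and MAMI, 0.57 between DI21 and SIS, and 0.79 between MAMI and SIS (Pearson, a description over samples that share the group difference). Within the 6 water samples the same pairs were at 0.77, -0.20 and -0.05, and within the 6 sucrose medium samples at -0.20, -0.07 and 0.76.

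The genes whose pattern over the 12 samples was most like each of the 3, among the other 564 genes with a probe of their own and a value in all samples, were taken by Pearson correlation of the normalised log2 intensity. For DI21 they were AT1G32730, AT1G64430 and AT3G19120, at 0.96, 0.95 and 0.94, with log2 fold changes of -0.76, -1.25 and -0.63. For MAMI they were PSBY (AT1G67740), a small subunit of photosystem II, AT5G19540 and AT4G27510, at 0.97, 0.96 and 0.94, with log2 fold changes of -0.79, -0.81 and -0.91. For SIS they were CRR21 (AT5G55740), a factor of plastid RNA editing, AT1G24040 and AT2G02590, at 0.87, 0.86 and 0.86, with log2 fold changes of -0.999, -0.58 and -0.80. Each of these correlations holds the group difference that the genes share. The genes were chosen from these same samples, so the values within a group are a description only. Within the 6 water samples alone the 3 genes of DI21 were at 0.85 to 0.90 and those of SIS at 0.54 to 0.82. Within sucrose medium they were at 0.63 to 0.89 and 0.67 to 0.97. Within water PSBY, AT5G19540 and AT4G27510 were at -0.44, 0.60 and -0.42 with MAMI, and within sucrose medium at 0.95, 0.91 and 0.86.

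The second probe annotated to SIS also carries AT5G59080 and AT3G46880, so its signal cannot be given to one gene. Its deposited intensity was 0.305, 0.289, 0.228, 0.234, 0.255 and 0.273 in water. In sucrose medium it was 0.539, 0.576, 0.582, 0.585, 0.580 and 0.641. Here the deposited groups did not overlap, as for 68.4% of all probes tested. The unscaled log2 fold change was 1.15 ± 0.09 (SE, limma, adjusted p = 5.66e-08), close to the 1.09 of the median probe. After quantile normalisation it was -0.06 ± 0.08 (SE), with a 95% interval of -0.23 to 0.11 (limma, adjusted p = 0.503). The probe that names SIS alone and the probe shared with SIS therefore differed in their values on both scales; that difference was not tested.

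Few other genes of water deficit could be read. Of 85 genes in lists of late response genes, transcription factors, abscisic acid genes, and genes of osmolytes and ion balance, 0 were on a tested probe of their own. A search of the RefSeq names of all annotated probes for words of drought, salt, mannitol, cold and the like found 5 genes: DI21, MAMI, SIS, and COR15A with COR15B. COR15A and COR15B encode proteins of the chloroplast stroma that protect membranes during freezing, and their genes are known to be induced by cold, drought and abscisic acid. Both are also among the 85 listed genes. They share a pair of probes, which were looked at because of this search and after values of the 3 genes had been seen, and their signal is not split between the 2 genes.

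On the probe numbered 615 COR15A and COR15B together had deposited intensities of 2.56, 2.40, 1.86, 1.92, 0.964 and 1.07 in water. In sucrose medium they had 1.61, 1.67, 1.32, 1.27, 0.921 and 0.945. Each pair was lower in sucrose medium on the deposited scale, 6 of 6, and replicates 5 and 6 were dim in both groups. The unscaled log2 fold change was -0.42 ± 0.26 (SE; limma, adjusted p = 0.151) and the normalised one -0.78 ± 0.28 (SE; adjusted p = 0.0269). It did not pass with cyclic loess (-0.54, adjusted p = 0.0993), after linear rescaling (-0.45, adjusted p = 0.189), with averaged sets (adjusted p = 0.144), without replicates 3 and 4 of both groups (-0.74, adjusted p = 0.147) or, at -0.65 and adjusted p = 0.0616, without sucrose medium replicate 5; leaving out sucrose medium replicate 6 or any of water replicates 1 to 4 also ended the call. It passed with a fixed block for the replicate number, after normalisation (adjusted p = 6.17e-05) and without scaling (adjusted p = 0.00449), and with median centring (-1.68, adjusted p = 0.000172).

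On the probe numbered 3484 the same pair of genes had deposited intensities of 1.21, 1.17, 0.956, 0.871, 0.648 and 0.647 in water. In sucrose medium they had 0.743, 0.764, 0.693, 0.738, 0.822 and 0.774. Water replicates 1 to 4 lay above all 6 sucrose medium samples, and water replicates 5 and 6 below all 6. The unscaled log2 fold change was -0.24 ± 0.16 (SE, limma, adjusted p = 0.182) and the normalised one -1.03 ± 0.13 (SE, limma, adjusted p = 1.96e-05). After normalisation the groups did not overlap, a separation downwards that 23.3% of the probes tested showed. As for DI21, the set of replicates 5 and 6 had the smallest normalised difference, -0.59 against -1.31 and -1.18.

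In the family of DI21, 1 of 4 genes was tested, DI21 itself. In the family of MAMI 2 of 6 genes were tested, MAMI and AT4G00170, another VAP-type gene, and both were lower after normalisation. AT4G00170 had deposited intensities of 0.179, 0.179, 0.157, 0.192, 0.289 and 0.228 in water. Its sucrose medium samples were at 0.203, 0.214, 0.204, 0.200, 0.219 and 0.188. The deposited groups overlapped and the unscaled log2 fold change was 0.034 ± 0.13 (SE; limma, adjusted p = 0.813). The normalised log2 fold change was -1.27 ± 0.12 (SE, limma, adjusted p = 1.87e-06), lower in 6 of 6 pairs with no overlap. Of the 2915 probes tested 32.9% passed as lower and 23.3% separated downwards. Whether AT4G00170 stood above background cannot be stated. After linear rescaling AT4G00170, like DI21, lay at or below 0 in all 6 sucrose medium samples and could not be fitted. The median normalised log2 fold change of these 2 family members was -0.95, beside -0.03 over all probes tested.

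**Figure D5:**
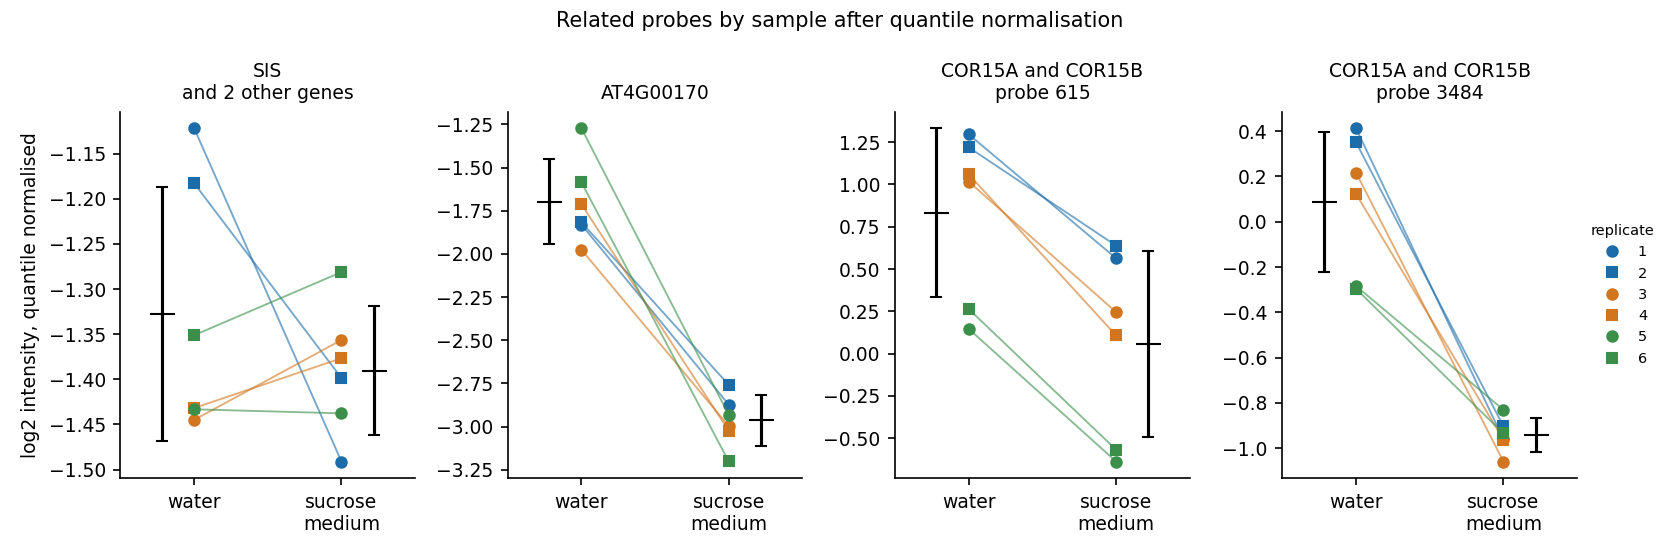
Log2 intensity after quantile normalisation (vertical axis) of the probe shared by SIS and 2 other genes, of AT4G00170 and of the pair of probes shared by COR15A and COR15B, in the 6 water and 6 sucrose medium samples. Lines join the same replicate number, colours mark sets of 2 replicates and black bars are mean ± SD. The SIS-sharing probe crosses in both directions, with 3 of 6 pairs lower, and the other 3 probes are lower in 6 of 6 pairs.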

How the data were processed

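The deposited table gives an intensity for each probe in each sample, linear and from 0 to 100, for 3439 probes and 12 samples. Its making and any scaling are not given in the sources used here. Sample titles gave the groups and replicate numbers. Zeros counted as missing; log2 intensities were quantile normalised, and the 2915 probes with at least 4 values in each group were tested with limma (version 3.58.1, R 4.3.3; two-sided, no block, Benjamini-Hochberg adjustment over these probes, threshold 0.05). Steps were also run on simulated data with independent noise and few changed probes, which cannot show whether the scaling suits these arrays. Figures used matplotlib 3.10.9.

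Probe names came from the platform annotation, updated through gene IDs to RefSeq names of TAIR10.1: 692 probes carried 1 gene (691 matched), 870 several, and 1877 were not listed. Named genes are the 3 members, listed genes on tested probes of their own, and the 3 most similar genes for each member. Members and lists were chosen with earlier results of these data known.

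Same-numbered samples deviated together from their group means (correlation 0.280 to 0.450 in 6 of 6 pairs, 2805 probes), against 0.162 to 0.282 for other numbers of the same set (1 and 2, 3 and 4, or 5 and 6) and -0.290 to 0.045 across sets. The likeness thus belongs in part to the set. The numbers paired samples in the differences and counts within pairs, the settings with a replicate block and the sign-flip test. The main limma fits, their intervals and the permutation tests did not use this pairing. In sucrose medium samples of a set were more alike (Spearman 0.977 to 0.990) than others (0.937 to 0.971), and in water the ranges met (0.959 to 0.974, and 0.933 to 0.961). Sets may be repeat measurements; the labels are silent on this.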

Additional observations from a re-analysis of the deposited data

Results flagged for a closer look

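Of 28 groups of 6 values checked, 3 held a sample far from the others, and chance gives about 1 in 20. The same samples were checked on deposited and normalised values, so the checks are not independent, and SIS in 1 sample was flagged on both. MAMI in water replicate 5 had a normalised log2 intensity of -0.00212, below the next sample at 0.09. SIS in sucrose medium replicate 4 was at -2.87 after normalisation, below the next at -2.18, and at 0.221 in deposited intensity, below the next at 0.357. Without that sample the log2 fold change of SIS was -0.63 (limma, adjusted p = 0.0144).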

How the results depend on the processing

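Without scaling DI21, MAMI and SIS turned to 0.35, 0.077 and 0.48, with 0 of 3 past the threshold, AT4G00170 to 0.034, with 0 listed genes past it, the probe shared by SIS to 1.15, and the differences DI21 minus MAMI and MAMI minus SIS to 0.27 and -0.40. After linear rescaling MAMI was at -0.085 (adjusted p = 0.562), the shared SIS probe at 0.59, MAMI minus SIS at 0.68, and 1 of 3 passed, DI21 having no value. In that setting 67.8% of the 2324 probes tested passed, and AT4G00170 also had no value. SIS was at -0.77 both with averaged sets and without replicates 5 and 6, where it did not pass. In these settings 46.7% and 59.1% of all probes tested passed. Without replicates 1 and 2, MAMI minus SIS was -0.010 and the shared SIS probe 0.051. Leaving out each sample in turn kept all 3 calls, with DI21 between -1.09 and -0.91, MAMI between -0.72 and -0.59 and SIS between -0.86 and -0.63 (highest adjusted p 0.0184). In those fits 61.7 to 63.8% of all probes tested passed. With a fixed block for the replicate number and quantile normalisation, DI21, MAMI and SIS had adjusted p = 0.000338, 0.00168 and 0.00105 (limma). The block ended or added no call among the 7 probes described, and 69.4% of all probes tested passed with it. With the block and no scaling the 3 were at 0.35, 0.077 and 0.48, with DI21 and SIS past the threshold as higher, AT4G00170 at 0.034 and the shared SIS probe at 1.15. The cause of these dependences was not tested. Sets left out, sets as a random block, and the block without scaling were chosen after seeing the data. With no background values in the table, whether DI21, SIS and AT4G00170 were above background cannot be stated.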
